A study of Homo sapiens with 9 samples.

Results

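The genes of MHC class I antigen presentation and peptide loading were examined in HK-2 cells, a line of human kidney cortex proximal tubule cells transformed with human papillomavirus 16. The set is defined by gene symbol, with earlier results of these data known. It holds 9 of the 62703 genes in the count table: the heavy chains HLA-B, HLA-C, HLA-E and HLA-F, the light chain B2M, the peptide transporter subunits TAP1 and TAP2, the loading chaperone TAPBP (tapasin), and NLRC5, a regulator of class I transcription. RNA was sequenced in 9 libraries in 3 groups of 3. The MYDGF group (libraries 1, 3 and 4) carried an adenovirus with the secreted growth factor MYDGF in the GV314 vector and also received aristolochic acid, a plant toxin that damages tubule DNA, at 5 µg/ml for 48 h. The aristolochic acid group (libraries 1, 4 and 6) received the toxin alone, at that dose and for that time. The untreated group (libraries 1, 2 and 3) received neither. All groups are given 12 h of serum starvation and medium with 5% fetal bovine serum. The labels state no control virus for the aristolochic acid or untreated cells, so MYDGF and the vector cannot be told apart. The cell line entry is HK-2 throughout, although the treatment entries of untreated libraries 2 and 3 and MYDGF libraries 3 and 4 read HK-3 or HK-4. Nothing says that the libraries of a group were separate cultures, so each p-value covers only the spread of the libraries at hand, which may be technical.

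Class I molecules show peptides from inside the cell to CD8+ T cells. The proteasome cuts proteins into peptides, the TAP transporter moves them into the endoplasmic reticulum, and the heavy chain with B2M binds a peptide there with the help of tapasin, calreticulin and the oxidoreductase PDIA3. Tubule cells carry class I at rest, and interferons raise the whole pathway through factors such as IRF1 and NLRC5.

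The promoters of HLA-B, HLA-C, HLA-F and B2M are shown because these genes supply the chains of the class I molecule that had counts in every library, and because the known control elements of class I genes lie there. Each is the RefSeq window (GRCh38.p14) from 250 bases before the start site to 50 after it, written 5′ to 3′ on the gene's strand. The windows lie at chr6:31357130-31357429 (minus strand), chr6:31272043-31272342 (minus strand), chr6:29723184-29723483 (plus strand) and chr15:44711267-44711566 (plus strand). Capitals mark matches, on either strand, to an interferon-stimulated response element core (GAAA and GAAA separated by 2 bases), an interferon gamma activated site (TTCNNNGAA), NF-kB sites (GGGANTTCC, or GGGGA and TCCC separated by 1 base), the X2 box core (TGACG) and the Y box core (ATTGG).
HLA-B: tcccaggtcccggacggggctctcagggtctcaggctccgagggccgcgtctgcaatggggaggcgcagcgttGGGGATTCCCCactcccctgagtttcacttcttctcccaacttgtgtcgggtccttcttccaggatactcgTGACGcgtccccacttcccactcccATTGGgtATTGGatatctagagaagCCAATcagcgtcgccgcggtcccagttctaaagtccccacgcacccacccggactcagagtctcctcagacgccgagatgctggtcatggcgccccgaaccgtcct
HLA-C: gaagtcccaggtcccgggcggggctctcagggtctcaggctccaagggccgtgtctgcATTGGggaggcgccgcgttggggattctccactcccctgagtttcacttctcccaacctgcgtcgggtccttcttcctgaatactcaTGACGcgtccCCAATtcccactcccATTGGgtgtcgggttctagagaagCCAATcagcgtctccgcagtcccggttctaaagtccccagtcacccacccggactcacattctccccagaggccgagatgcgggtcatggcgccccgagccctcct
HLA-F: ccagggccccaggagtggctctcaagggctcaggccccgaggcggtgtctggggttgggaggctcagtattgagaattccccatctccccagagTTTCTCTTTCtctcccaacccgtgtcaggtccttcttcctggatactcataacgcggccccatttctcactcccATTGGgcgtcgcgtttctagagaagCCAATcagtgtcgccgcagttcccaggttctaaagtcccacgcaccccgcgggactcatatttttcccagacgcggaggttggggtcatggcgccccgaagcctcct
B2M: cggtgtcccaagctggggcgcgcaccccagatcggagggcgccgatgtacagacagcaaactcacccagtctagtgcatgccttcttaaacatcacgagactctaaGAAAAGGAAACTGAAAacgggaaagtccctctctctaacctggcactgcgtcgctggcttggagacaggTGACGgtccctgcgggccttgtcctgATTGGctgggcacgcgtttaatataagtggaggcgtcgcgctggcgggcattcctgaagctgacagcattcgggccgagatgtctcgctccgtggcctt

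Of the 9 genes, 7 had a RefSeq window, and HLA-E and NLRC5 are only named. HLA-B, HLA-C and HLA-F shared a layout of Y box cores. A forward match began 81, 80 and 82 bases before the start site, and a reverse match began 56, 56 and 57 bases before it, in that order of genes. An X2 core began 106 bases before the start site in HLA-B, 105 in HLA-C and 75 in B2M. The interferon-stimulated core was found in 5 of the 7 genes (HLA-F, B2M, TAP1, TAP2 and TAPBP), against 3.57% of all 35116 windows. In B2M 2 matches to this core overlap, and in HLA-B the second NF-kB motif overlaps its own reverse match; this motif stood in 0.424% of all windows. The NF-kB motif GGGANTTCC stood in TAPBP and in 1.85% of all windows, and the gamma activated site stood in a second TAP1 window and in 7.66% of all windows. X2 cores stood in 4 of the 7 genes and 24.6% of all windows, and Y box cores in 5 of the 7 and 34.6%. The shares of all windows are per window, whereas the members are counted per gene, and TAP1 had 2 windows. These are exact matches of letters, not measured binding. An element that differs from the letters searched is missed, so a gene without a match may still hold one.

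The libraries held 10876572 to 14254786 counts. MYDGF itself averaged 591 ± 76.7 CPM (counts scaled to a library total of 1e6) in the MYDGF group, 89.8 ± 15.4 CPM in the aristolochic acid group and 126 ± 4.11 CPM in untreated cells (SD, n = 3 each), so its level fitted the labels. The 6 epithelial markers were all tested and their summed CPM ran from 2094 to 2157 in the MYDGF group, 2344 to 2349 with aristolochic acid and 1665 to 1694 in untreated cells. Only 5 of 14 proximal tubule markers passed the filter on low counts, with sums of 18.3 to 22.2, 23.9 to 34.5 and 13.8 to 14.7 CPM in the same order, and the defining anion transporters SLC22A6 and SLC22A8 were at 0 in all 9 libraries. Of the 14 leukocyte markers 5 passed; CD3E and NKG7 were at 0, and the sums were 32.6 to 39.3 CPM in the MYDGF group, 50.7 to 62.5 CPM with aristolochic acid and 34.5 to 42.1 CPM in untreated cells. Endothelial markers (4 of 8 passed) summed to 20.4 to 27.5, 20.1 to 20.9 and 27.7 to 30.3 CPM, and fibroblast and mesangial markers (3 of 8 passed) to 17.5 to 21.4, 13.2 to 17.2 and 13.2 to 15.8 CPM, again in that order. Single markers moved apart within the sums. EGFL7 made up most of the endothelial sum in the MYDGF and untreated groups. With aristolochic acid it averaged 9.16 CPM, and PECAM1 averaged 7.92 CPM. For aristolochic acid against untreated, the log2 differences of the endothelial genes were -1.54 for EGFL7, 3.74 for PECAM1 and 2.77 for TEK. Those of the leukocyte genes were 4.12 for ITGAM, 4.51 for CD79A and -1.46 for CD68, and all 6 passed edgeR's test. CD83 was the largest part of the leukocyte sum in every group. It averaged 21.6 CPM in the MYDGF group, 31.7 CPM with aristolochic acid and 19.6 CPM in untreated cells. Its log2 difference for aristolochic acid against untreated was 0.70 (edgeR adjusted p = 0.00106). Among the epithelial markers CDH1 was called lower in that comparison, at -1.13 (edgeR adjusted p = 1.94e-05), and all the others were called higher. The part of these lists in the results below was not tested. In bulk RNA, fewer cells of a type and less RNA per cell cannot be told apart.

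Counts in the class I region were uneven, and this bears on every value for its genes. Of the 9 genes, 7 lie on chromosome 6 between HLA-F and TAPBP (chr6:29722775-33314284, 3592 kb, positions of the deposited table read as GRCh38). Of the 142 protein-coding genes in this span, 48 (33.8%) had 0 counts in all 9 libraries, against 91 of 870 (10.5%) on the rest of chromosome 6 and 2078 of 18395 (11.3%) on the other chromosomes. The median total over the 9 libraries was 15 counts in the span, 1043 on the rest of the chromosome and 1316 elsewhere. Some genes at or near 0 there belong to families that were otherwise well counted. The mitochondrial ribosomal protein gene MRPS18B had 0 counts, while the other 77 genes of that family had at least 61 each. The translation factor gene ABCF1 had 0 counts, while its other 2 family members had at least 6341. LSM2, of the RNA-processing LSM proteins, had 1 count, while the other 10 had at least 2360. TUBB, CLIC1, MDC1 and PPP1R10 also had 0, whereas RPS18, BRD2 and PRRC2A in the same span had 56449, 10554 and 7610 counts. These examples were chosen after their values were seen. A count of 0 in this span is therefore given below only as listed at 0. How reads with several matches and alternate sequences of the region were treated is not stated in the labels or headers, and its part was not tested.

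**Figure D1:**
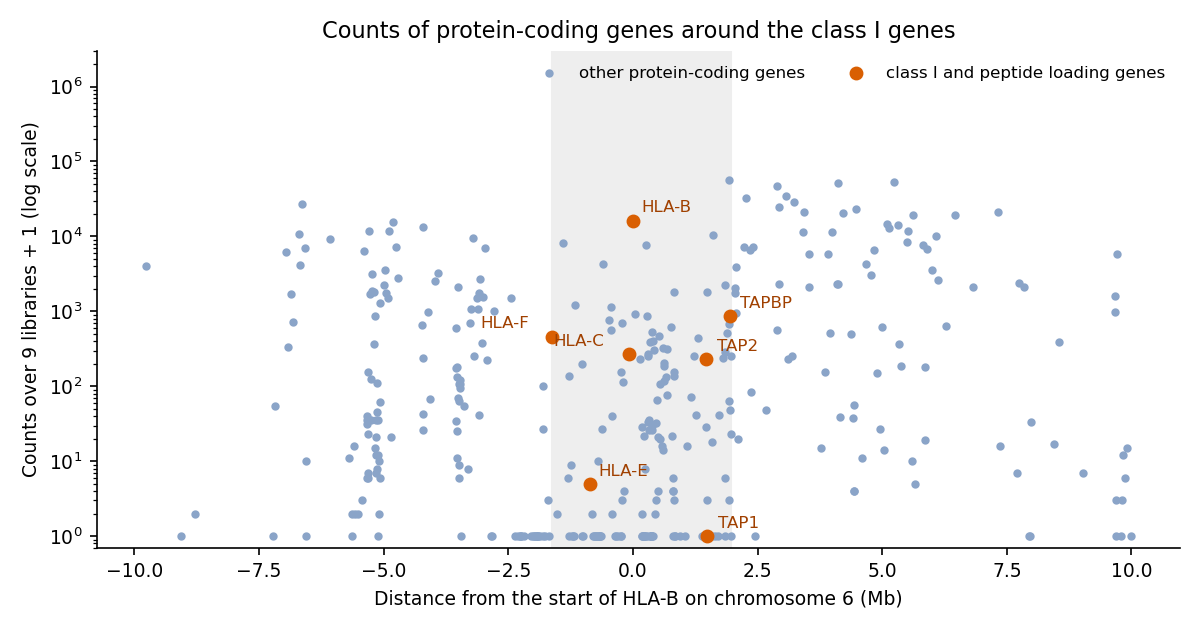
Total counts over the 9 libraries, plus 1 and on a log axis, of each protein-coding gene within 10 Mb of HLA-B, against distance from its start in Mb; the shaded span runs from HLA-F to TAPBP. Inside it 33.8% of genes had 0 counts; HLA-B stands at 16257 counts, TAP1 at 0.

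B2M and HLA-B stood far above the rest of the set. In untreated cells the deposited FPKM averaged 31.7 ± 3.03 for B2M, 17.1 ± 1.72 for HLA-B, 0.76 ± 0.0669 for NLRC5, 0.735 ± 0.199 for HLA-F, 0.478 ± 0.0666 for HLA-C, 0.235 ± 0.059 for TAPBP and 0.0661 ± 0.0271 for TAP2 (SD, n = 3 each). The untreated ranges of NLRC5 and HLA-F overlapped, as did those of HLA-F and HLA-C, and those of the other neighbours in this order did not. The order depends on the length used. The length that the FPKM implies is longer than the gene's own span in the table for 4 of the 8 genes with an FPKM above 0 (HLA-C, B2M, TAP2 and TAPBP), as for 22.6% of all genes. Per kb of merged GENCODE 29 exons, HLA-B came first in untreated cells at 70.7 CPM per kb and B2M followed at 46.6, and TAPBP moved ahead of NLRC5, HLA-F and HLA-C, at 1.7 against 1.48, 1.43 and 1.17 CPM per kb. All levels below are CPM, which compare libraries and not genes.

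HLA-B (chr6:31353872-31367067, minus strand) encodes a classical heavy chain that presents peptides to CD8+ T cells. It measured 181, 39.3 and 89.0 CPM in the MYDGF libraries, 154, 135 and 28.1 CPM in the aristolochic acid libraries and 198, 208 and 242 CPM in the untreated libraries. Every treated library lay below every untreated library, and each treated group spread widely. The log2 difference was -1.03 (SE 0.613) for aristolochic acid against untreated and did not pass edgeR's quasi-likelihood test (adjusted p = 0.178, 95% interval -2.41 to 0.36). For MYDGF against aristolochic acid it was -0.04 (SE 0.61, edgeR adjusted p = 0.971), an interval of -1.41 to 1.34, and for MYDGF against untreated -1.06 (SE 0.613, edgeR adjusted p = 0.175). The highest library was 4.6 times the lowest in the MYDGF group and 5.47 times in the aristolochic acid group, against 1.22 times in untreated cells. Among 11873 genes with a mean of at least 50 counts, 0.48% and 0.345% had a wider ratio in the MYDGF and aristolochic acid groups, and 26.5% in untreated cells. Of the 100-base windows of its longest coding transcript, 17.5% also occur in another annotated gene.

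HLA-C (chr6:31268749-31272130, minus strand), the classical heavy chain best known as a ligand of natural killer cell receptors, fell with aristolochic acid and was higher again with MYDGF. It measured 2.45, 2.50 and 2.76 CPM in the MYDGF libraries, 1.86, 1.39 and 1.38 CPM in the aristolochic acid libraries and 2.77, 2.60 and 3.40 CPM in the untreated libraries. The aristolochic acid group lay below both other groups, which overlapped each other. These values rest on 32 to 39, 15 to 23 and 31 to 45 counts per library in the same order. Aristolochic acid against untreated gave a log2 difference of -0.92 (SE 0.208, edgeR adjusted p = 0.0041). MYDGF against aristolochic acid gave 0.73 (SE 0.21, edgeR adjusted p = 0.0288). This second call was weak: edgeR's adjusted p ran from 0.0544 to 0.0935 without a filter, in a fit to the 6 libraries compared, and with any single MYDGF library or aristolochic acid library 4 or 6 left out, and was 0.112 with DESeq2. MYDGF against untreated gave -0.19 (SE 0.196, edgeR adjusted p = 0.448, interval -0.63 to 0.25). The comparisons share the aristolochic acid libraries, so they are not independent of each other.

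HLA-F (chr6:29722775-29738528, plus strand), a nonclassical heavy chain, fell with aristolochic acid, with and without MYDGF. It measured 2.60, 3.43 and 2.97 CPM in the MYDGF libraries, 2.59, 3.40 and 2.76 CPM in the aristolochic acid libraries and 7.37, 6.96 and 4.31 CPM in the untreated libraries. Both treated groups covered nearly the same range and lay below all untreated libraries. This gave a log2 difference of -1.08 (SE 0.236, edgeR adjusted p = 0.00326) for aristolochic acid against untreated and -1.05 (SE 0.234, edgeR adjusted p = 0.00488) for MYDGF against untreated. Between MYDGF and aristolochic acid it was 0.04 (SE 0.245, edgeR adjusted p = 0.923), with an interval of -0.51 to 0.59. An antisense gene, HLA-F-AS1, overlaps it on the other strand and had 20 to 38 counts per library, against 30 to 93 for HLA-F. Of its transcript windows 31.8% also occur in this or other genes, so reads between them may be split.

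HLA-E (chr6:30489509-30494194, plus strand), a nonclassical heavy chain recognised by natural killer cell receptors, had 4 counts in all, 2 in MYDGF library 3 and 2 in untreated library 3, and the other 7 libraries were listed at 0. It was not tested. Only 0.6% of its transcript windows occur in another gene.

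B2M (chr15:44711358-44718851, plus strand), the light chain that every class I molecule needs, lies outside the class I region. It measured 197, 374 and 223 CPM in the MYDGF libraries, 347, 178 and 279 CPM in the aristolochic acid libraries and 304, 292 and 255 CPM in the untreated libraries. The 3 groups overlapped, and both treated groups reached above and below the untreated range. The log2 differences were -0.08 (SE 0.271, edgeR adjusted p = 0.814) for aristolochic acid against untreated, -0.02 (SE 0.271, edgeR adjusted p = 0.972) for MYDGF against aristolochic acid and -0.10 (SE 0.271, edgeR adjusted p = 0.787) for MYDGF against untreated. Their intervals, -0.69 to 0.53, -0.63 to 0.59 and -0.71 to 0.51, leave room for changes of either sign. The highest library was 1.9, 1.95 and 1.19 times the lowest in MYDGF, aristolochic acid and untreated cells; 4.08%, 4.91% and 31.4% of genes had a wider ratio. No transcript window of B2M occurs in another gene. In the MYDGF group library 3 was highest for B2M and lowest for HLA-B.

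**Figure D2:**
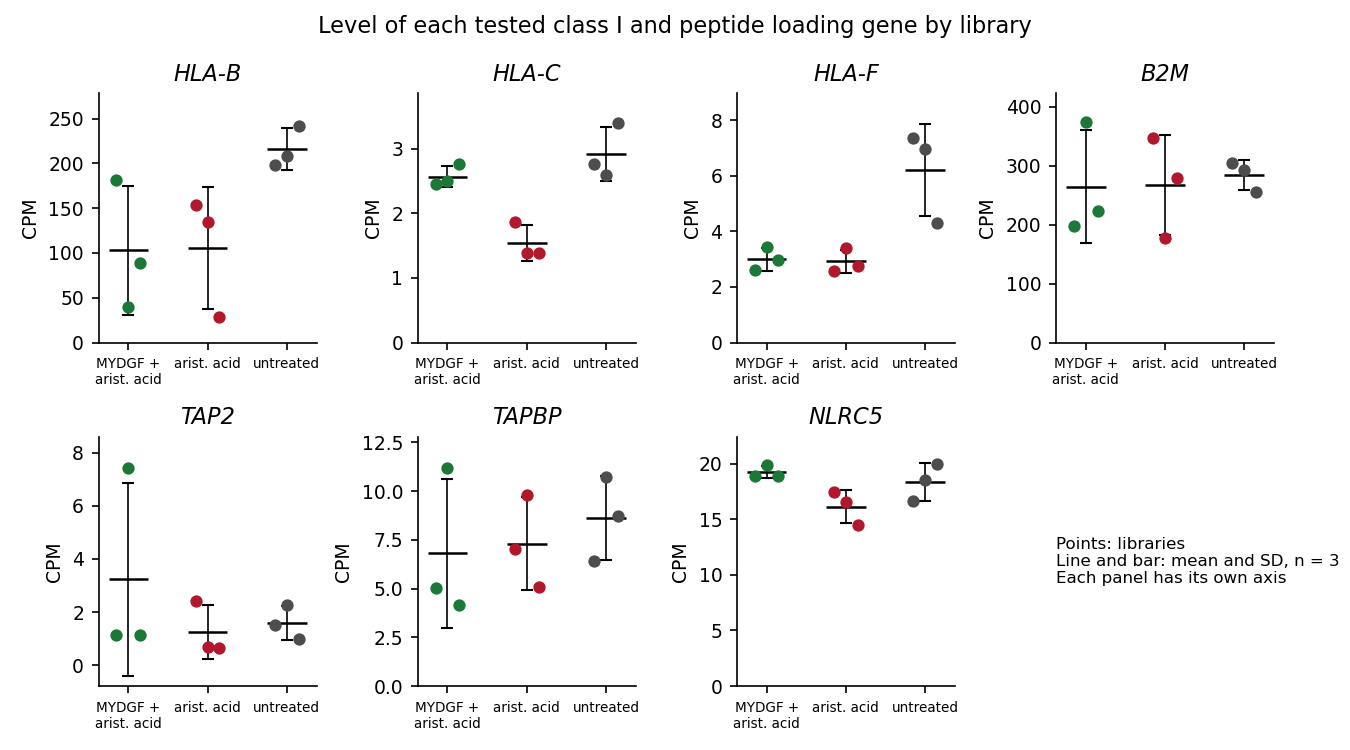
CPM of the 7 tested genes, 1 panel per gene and 1 point per library, with MYDGF with aristolochic acid at the left, aristolochic acid in the middle and untreated at the right; lines and bars are means and SD (n = 3). HLA-C is lowest with aristolochic acid, HLA-F is low in both treated groups, and HLA-B, B2M, TAP2 and TAPBP spread widely within the treated groups.

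TAP1 (chr6:32845209-32853816, minus strand), a subunit of the peptide transporter, was listed at 0 in all 9 libraries. PSMB9, on the opposite strand over the same stretch, had 133 to 277 counts per library. Of TAP1's transcript windows 12.7% occur in another gene.

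TAP2 (chr6:32821833-32838739, minus strand), the partner subunit, measured 1.15, 7.42 and 1.13 CPM in the MYDGF libraries, 2.43, 0.695 and 0.644 CPM in the aristolochic acid libraries and 1.51, 2.27 and 0.984 CPM in the untreated libraries. MYDGF library 3 stood far above the other 8, which overlapped across the groups. A gene without a symbol, ENSG00000250264, covers TAP2 on the same strand and shares 35.1% of its transcript windows. In MYDGF library 3 TAP2 had 95 counts and this gene 0, and in untreated library 2 the counts were 27 and 0. In the other 7 libraries TAP2 had 7 to 30 counts and the overlapping gene 26 to 109. The log2 difference was 1.34 (SE 0.811, edgeR adjusted p = 0.247) for MYDGF against aristolochic acid and -0.16 (edgeR adjusted p = 0.885) without MYDGF library 3. For aristolochic acid against untreated it was -0.31 (SE 0.864, edgeR adjusted p = 0.77), and for MYDGF against untreated 1.02 (SE 0.787, edgeR adjusted p = 0.304), which was -0.45 (edgeR adjusted p = 0.564) without MYDGF library 3. With the counts of both genes summed, an alternative chosen after the values were seen, these differences, in the same order, were 0.51 (edgeR adjusted p = 0.468), -0.34 (edgeR adjusted p = 0.576) and 0.17 (edgeR adjusted p = 0.785). The chaperone gene TXNDC5 showed the same kind of switch. MYDGF library 3 had 636 counts for it and 4072 for the overlapping readthrough gene BLOC1S5-TXNDC5, which had 0 in the other 8 libraries. The cause of these switches was not tested.

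**Figure D3:**
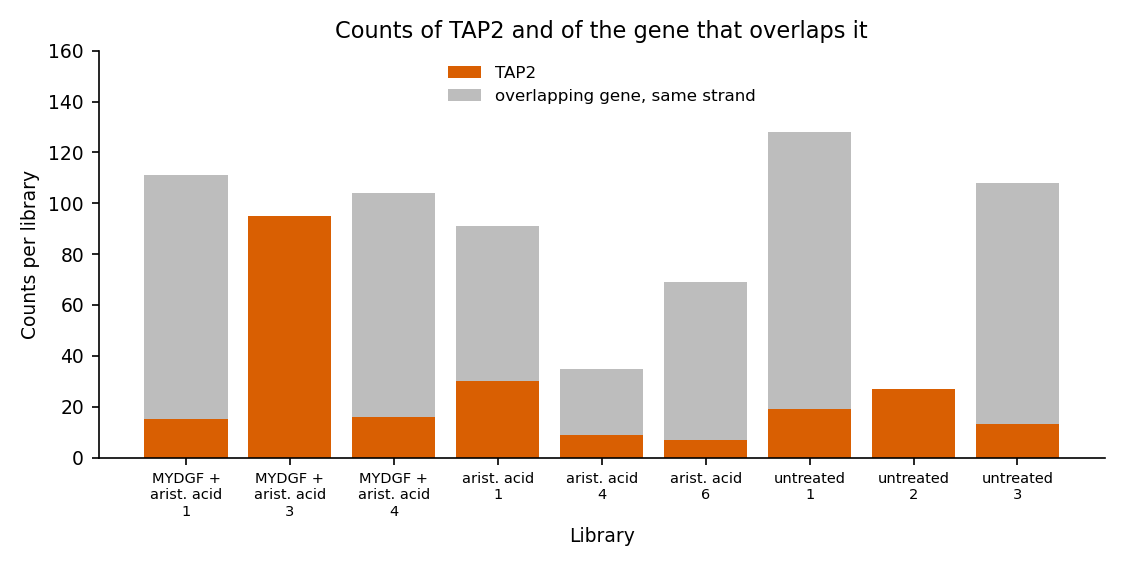
Counts per library of TAP2 (orange) and of the gene that overlaps it on the same strand (grey, stacked), with MYDGF with aristolochic acid at the left and untreated at the right. In MYDGF library 3 and untreated library 2 the overlapping gene has 0 counts; the sum runs from 27 to 128.

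TAPBP (chr6:33299694-33314284, minus strand), tapasin, which holds the empty class I molecule near TAP, measured 5.05, 11.2 and 4.17 CPM in the MYDGF libraries, 7.04, 9.81 and 5.06 CPM in the aristolochic acid libraries and 6.42, 10.7 and 8.70 CPM in the untreated libraries. All 3 groups overlapped, and MYDGF library 3 was again the highest of its group. The log2 difference was -0.23 (SE 0.385, edgeR adjusted p = 0.625) for aristolochic acid against untreated, -0.11 (SE 0.388, edgeR adjusted p = 0.859) for MYDGF against aristolochic acid and -0.34 (SE 0.385, edgeR adjusted p = 0.485) for MYDGF against untreated. Without MYDGF library 3 the last was -0.89 and passed the test (edgeR adjusted p = 0.0451).

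NLRC5 (chr16:56989485-57083531, plus strand), which drives class I transcription at the X and Y boxes with the RFX and NFY factors, had 158 to 267 counts per library and passed no test. It measured 18.9, 19.9 and 18.9 CPM in the MYDGF libraries, 17.4, 16.5 and 14.5 CPM in the aristolochic acid libraries and 16.6, 18.5 and 20 CPM in the untreated libraries. The MYDGF libraries all lay above the aristolochic acid libraries, and both overlapped the untreated range. The log2 difference was 0.25 for MYDGF against aristolochic acid (SE 0.108) and did not pass edgeR's test (adjusted p = 0.108, interval 0.01 to 0.50). It was -0.19 (SE 0.109, edgeR adjusted p = 0.165) for aristolochic acid against untreated and 0.06 (SE 0.108, edgeR adjusted p = 0.639) for MYDGF against untreated. The highest library was 1.06, 1.2 and 1.2 times the lowest in MYDGF, aristolochic acid and untreated cells, and 86.5%, 52.9% and 29.3% of genes had a wider ratio. The nearest active gene upstream on its strand, HERPUD1, ends 44.6 kb before it.

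Over the set, 7 of 9 genes passed the filter on low counts. Aristolochic acid against untreated called 2 of the 7 lower (HLA-C and HLA-F) and 0 higher by edgeR, with the same counts at an unadjusted p under 0.05 and by DESeq2. Across all 18267 genes tested, 59.0% were called in that comparison, 29.3% lower and 29.7% higher, so 2 of 7 is no larger a share than the background. The libraries of the groups did not overlap for 3 of the 7 (HLA-B, HLA-C and HLA-F), against 65.9% of all genes tested. The median log2 difference of the 7 was -0.31, against -0.01 over all genes. MYDGF against aristolochic acid called 1 of 7 higher (HLA-C) and 0 lower, against 14.7% of all genes in each direction and 29.4% in both; 2 were higher and 0 lower at an unadjusted p under 0.05 (HLA-C and NLRC5), and DESeq2 called 0. The groups did not overlap for 2 of the 7 (HLA-C and NLRC5), against 44.3% of all genes tested, and the median was 0.04, against 0.01 over all genes. MYDGF against untreated called 1 of 7 lower (HLA-F) and 0 higher, as did DESeq2 and an unadjusted p under 0.05, against 24.3% of all genes lower and 51.1% in both directions, with a median of -0.19 against 0.02 over all genes. The groups did not overlap for 2 of the 7 (HLA-B and HLA-F), against 63.9% of all genes tested. No test over the set was made.

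**Figure D4:**
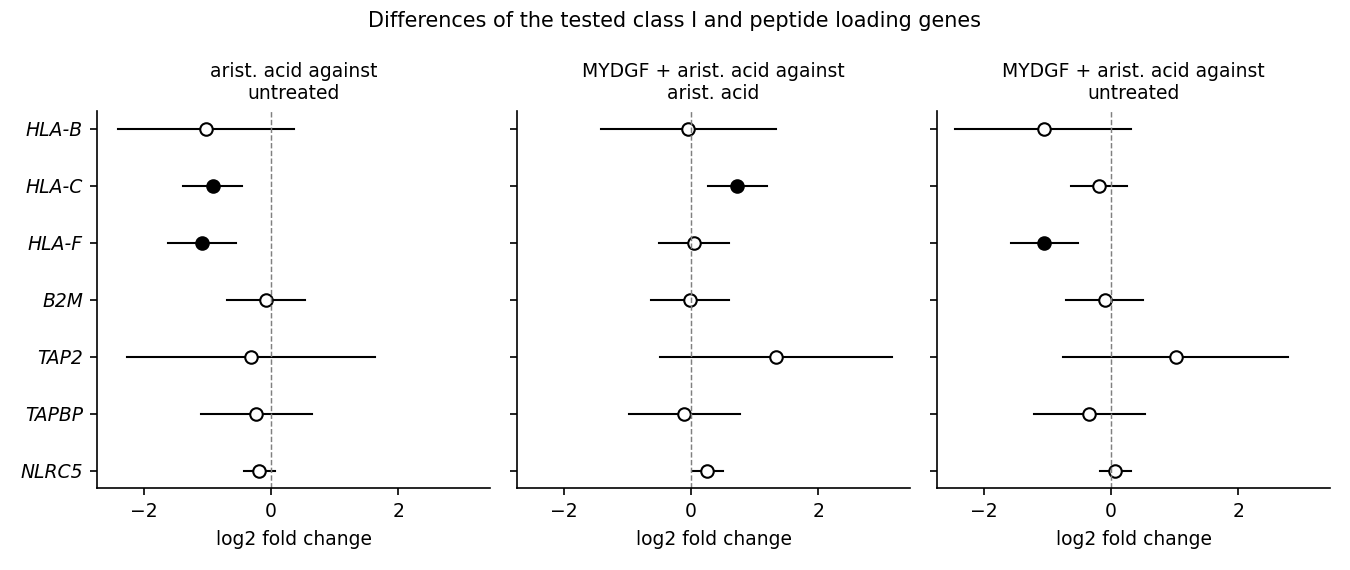
Log2 differences of the 7 tested genes with 95% intervals of the edgeR fit in 3 panels, 1 per comparison; filled points passed an adjusted p of 0.05. HLA-C and HLA-F are filled in the first panel, HLA-C in the second and HLA-F in the third, and the HLA-B and TAP2 intervals are the widest.

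The genes around these 9 in the pathway are given by list. Their counts are to be read against the shares of all genes called. For aristolochic acid against untreated this share was 59.0%, with 29.7% higher and 29.3% lower. For MYDGF against aristolochic acid it was 29.4%, with 14.7% in each direction. For MYDGF against untreated it was 51.1%, with 26.8% higher and 24.3% lower. Of 21 other class I and class I-like genes, 16 were tested, and aristolochic acid against untreated called 5 higher and 5 lower (median -0.46), a share near the 59.0% of all genes. The class I pseudogenes HLA-H and HLA-V rose with aristolochic acid, by 1.19 and 1.27 on the log2 scale (edgeR adjusted p = 0.000209 and 0.0023), and reads may be shared between them and other class I genes. CD1D, a lipid-presenting molecule, was also called higher but had 1 count in all untreated libraries together. ULBP1, a stress ligand of the NKG2D receptor, was highest with MYDGF, at 34.7 ± 3.65 CPM in the MYDGF group, 20.3 ± 0.893 CPM with aristolochic acid and 15.7 ± 1.18 CPM in untreated cells (SD, n = 3 each; edgeR adjusted p = 0.00162 for MYDGF against aristolochic acid). FCGRT, the neonatal Fc receptor that pairs with B2M, fell with aristolochic acid by 1.27 (edgeR adjusted p = 6.78e-05) and differed by -0.05 (edgeR adjusted p = 0.823) between MYDGF and aristolochic acid. PROCR, the endothelial protein C receptor, averaged 47.2 CPM in the MYDGF group, 28.3 CPM with aristolochic acid and 80.8 CPM in untreated cells, a log2 difference of -1.52 (SE 0.123, edgeR adjusted p = 1.55e-05) for aristolochic acid and 0.74 (SE 0.122, edgeR adjusted p = 0.00323) for MYDGF against aristolochic acid. MYDGF against aristolochic acid called 4 of the 16 higher and 1 lower. The lower call (CD1D) was lost under 7 alternative settings and the higher call of RAET1G, a ligand of NKG2D, under 10. MYDGF against untreated called 5 of the 16 higher and 3 lower.

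The immunoproteasome, which interferons induce, cuts peptides suited to class I. Aristolochic acid against untreated called all 4 tested genes of the immunoproteasome and its PA28 activator lower (median -0.65), against 29.3% of all genes. The 4 became 3 under RLE scaling, in a fit to the 6 libraries compared and with DESeq2, and 0 with a replicate block. The fifth gene, PSMB8, had 2 counts in all and lies in the class I region, as does PSMB9. PSMB9 covers TAP1 on the opposite strand, and the strand setting is not given. Its counts may therefore include reads of TAP1, which was not tested. PSMB9 measured 17.2, 21.6 and 17.9 CPM in the MYDGF libraries, 13.0, 10.3 and 12.6 CPM with aristolochic acid and 14.9, 17.9 and 17.9 CPM in untreated cells. Its aristolochic acid libraries lay below both other groups, with a log2 difference of -0.50 (SE 0.14, edgeR adjusted p = 0.0125) for aristolochic acid against untreated and 0.66 (SE 0.14, edgeR adjusted p = 0.00844) for MYDGF against aristolochic acid. PSMB10 fell by 0.86 (edgeR adjusted p = 0.00614), and PSME1, a PA28 subunit, fell by 0.79 (edgeR adjusted p = 0.000481). PSME2 was at -0.20 (edgeR adjusted p = 0.0235), a call lost under 8 of the alternative settings, DESeq2 among them. MYDGF against aristolochic acid called 1 of these 4 higher (PSMB9), and MYDGF against untreated called 1 lower (PSME1). Of the 3 standard catalytic subunits that the immunoproteasome subunits replace, aristolochic acid called 1 lower (PSMB5, -0.68, edgeR adjusted p = 0.000195), MYDGF against aristolochic acid 1 higher (PSMB6, 0.58, edgeR adjusted p = 0.0129), and MYDGF against untreated 2 higher and 1 lower. The 2 higher calls became 0 without MYDGF library 3 and without the filter on low counts.

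Of 14 loading chaperones and trimming peptidases, all tested, aristolochic acid against untreated called 7 lower and 1 higher (median -0.20). The share called in both directions together was near the 59.0% of all genes. By direction, 29.3% of all genes were called lower and 29.7% higher. CALR, calreticulin of the loading complex, averaged 530.3 ± 24.5 CPM in the MYDGF group, 439 ± 34.4 CPM with aristolochic acid and 627 ± 12.0 CPM in untreated cells (SD, n = 3 each). The 3 groups did not overlap, and log2 differences were -0.51 (SE 0.0644, edgeR adjusted p = 0.000145) for aristolochic acid and 0.27 (SE 0.0643, edgeR adjusted p = 0.0132) for MYDGF against aristolochic acid; the second was lost without MYDGF library 1 or 3. ERAP1, which trims peptides to class I length, measured 91.9, 109 and 116 CPM in the MYDGF libraries, 87.4, 74.1 and 59.3 CPM with aristolochic acid and 155, 150.4 and 162 CPM in untreated cells. The groups again did not overlap, at -1.08 (SE 0.137, edgeR adjusted p = 0.000149) and 0.52 (SE 0.136, edgeR adjusted p = 0.0195) for these 2 comparisons; the second was lost without MYDGF library 3 or 4 or aristolochic acid library 4 or 6. PDIA3 fell by 0.43 (edgeR adjusted p = 0.000258) and the related trimming peptidase ERAP2 fell by 0.84 (edgeR adjusted p = 0.00021) with aristolochic acid. TAPBPL, the tapasin relative that edits peptides outside the loading complex, was at 0.06 (edgeR adjusted p = 0.739) with aristolochic acid and fell with MYDGF, by 0.78 (edgeR adjusted p = 0.00695) against aristolochic acid. MYDGF against aristolochic acid called 6 of the 14 higher and 2 lower, and without MYDGF library 3 the 6 became 2. MYDGF against untreated called 2 higher and 6 lower.

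Of 23 known regulators of class I transcription, aristolochic acid against untreated called 6 higher and 8 lower (median -0.13), near the 59.0% called over all genes. IRF1, which binds the interferon-stimulated element, measured 55.5, 55.4 and 51.0 CPM in the MYDGF libraries, 87.5, 121 and 108 CPM with aristolochic acid and 49.7, 50.7 and 53.9 CPM in untreated cells. The aristolochic acid libraries lay above all others, which overlapped. The log2 difference was 1.04 (SE 0.111, edgeR adjusted p = 6.25e-05) for aristolochic acid against untreated and -0.97 (SE 0.111, edgeR adjusted p = 0.000938) for MYDGF against aristolochic acid. The NF-kB subunits RELB and NFKB1 moved in the same directions, by 1.34 (edgeR adjusted p = 5.04e-06) and 0.75 (edgeR adjusted p = 4.51e-05) with aristolochic acid and by -0.50 (edgeR adjusted p = 0.00282) and -0.62 (edgeR adjusted p = 0.00114) with MYDGF against aristolochic acid. The interferon signal transducer STAT2 went the other way with aristolochic acid. It averaged 34.4 ± 4.31 CPM in the MYDGF group, 36.2 ± 7.99 CPM with aristolochic acid and 134 ± 20.7 CPM in untreated cells (SD, n = 3 each). Against untreated, STAT2 fell by 1.89 (edgeR adjusted p = 2.79e-05) with aristolochic acid, and it was at -0.07 (edgeR adjusted p = 0.781) between MYDGF and aristolochic acid. Of the factors at the X and Y boxes, RFX5 fell by 0.72 (edgeR adjusted p = 1.69e-05) and NFYB by 1.06 (edgeR adjusted p = 2.86e-05) with aristolochic acid, and NFYC rose by 0.72 (edgeR adjusted p = 0.000205). MYDGF against aristolochic acid called 3 of the 23 higher and 9 lower, or 6 lower without MYDGF library 3, and MYDGF against untreated 3 higher and 11 lower.

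Of 21 interferon ligands, receptors and kinases, 14 were tested; aristolochic acid called 2 higher and 3 lower, MYDGF against aristolochic acid 1 higher and 4 lower, and MYDGF against untreated 1 higher and 6 lower. The 1 higher call for MYDGF against aristolochic acid became 0 without MYDGF library 3. The interferon gamma receptor gene IFNGR1 fell in each step, by 0.35 (edgeR adjusted p = 0.00211) with aristolochic acid and by 0.31 (edgeR adjusted p = 0.0121) with MYDGF against aristolochic acid. Of 12 class II genes, 4 were tested, and 11 of the 12 lie in the sparsely counted span; aristolochic acid called 3 of the 4 lower, and 1 to 4 with a library left out. The exception in position, CD74, the class II invariant chain, averaged 5.12 CPM in the MYDGF group, 2.9 CPM with aristolochic acid and 9.84 CPM in untreated cells (-1.76, edgeR adjusted p = 0.000156, for aristolochic acid against untreated). Of 18 tested interferon targets outside antigen presentation, 12 were called lower and 1 higher with aristolochic acid (median -1.31), 4 lower with MYDGF against aristolochic acid, and 14 lower and 1 higher with MYDGF against untreated.

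**Figure D5:**
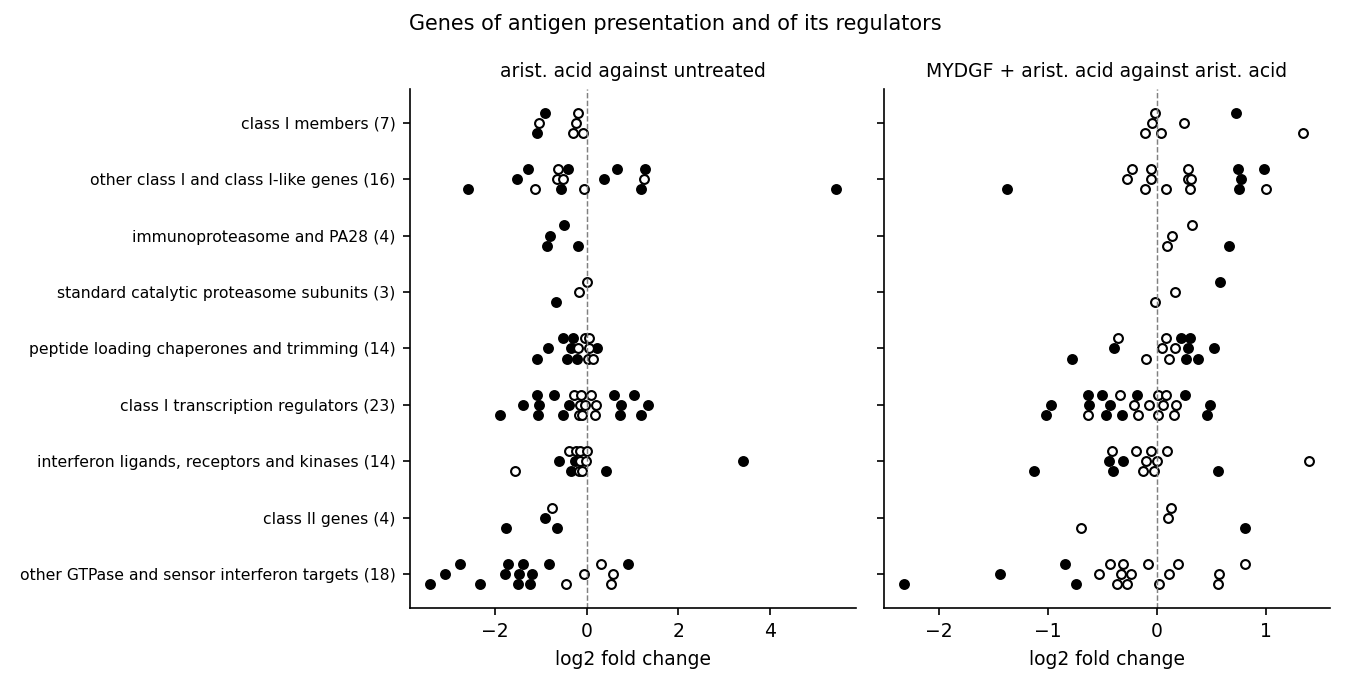
Log2 differences of every tested gene of the class I set and 8 surrounding lists (number tested in parentheses), for aristolochic acid against untreated (left) and MYDGF with aristolochic acid against aristolochic acid (right); filled points passed an edgeR adjusted p of 0.05. All 4 immunoproteasome and PA28 genes are filled and left of 0 in the left panel, and regulators lie on both sides.

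The 10 genes whose pattern was most like the mean of the 7 tested genes (each scaled to its own mean and SD over the 9 libraries) had Pearson r of 0.938 to 0.986. They included the ribosomal protein gene RPLP1 (0.972), GSTO1 (0.96) and UBL5 (0.958). They were picked as the highest of all genes, so these values are a description. The 7 genes did not share 1 pattern: Pearson r between pairs of them ran from -0.27 (HLA-B with B2M) to 0.79 (HLA-C with NLRC5).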

How the data were processed

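The authors deposited raw counts of whole reads for each gene, per the file headers, and beside them FPKM values made from the counts and a gene length. The tools named in the submitters' processing notes are HISAT2, SAMtools 1.3.1, CASAVA 1.8 and edgeR, and the build named there is mm10; the table lists human IDs, and positions are read as GRCh38. Not given in the sources used here are the counting tool, annotation, strand setting and handling of multiply matching reads.

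Counts were fitted with edgeR 4.0.16 in R 4.3.3: TMM scaling, filterByExpr by group (minimum count 10, minimum total 15), a single factor with 3 groups over 9 libraries, and the quasi-likelihood test with 6 residual degrees of freedom (biological coefficient of variation 16.4%). Adjusted p-values are Benjamini-Hochberg values over all 18267 genes tested, with a threshold of 0.05. SE is the size of the log2 difference over the square root of F; intervals are 95%. CPM use TMM-scaled library sizes. The script was tested on simulated counts. Alternatives were RLE scaling, no filter, the 6 libraries compared, leaving out each library, a replicate block and DESeq2 1.42.0.

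GENCODE 29, which holds 92.9% of the table's IDs, gave strand, exon length and the longest coding transcript, whose 100-base windows were looked up in all other transcripts. Every gene of the set is named, with genes of 8 lists around it, overlapping and upstream genes, and the 10 most alike; some results are not reported here. The set and the lists were chosen with earlier results of these data known. The fall of interferon target genes was among those results, so their counts are no independent support.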

Additional observations from a re-analysis of the deposited data

How the results depend on the processing

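Of the values of the 7 tested genes, the calls of HLA-C and HLA-F for aristolochic acid against untreated, and of HLA-F for MYDGF against untreated, held under RLE scaling, no filter, the 6-library fit, DESeq2 and every left-out library. The number called for MYDGF against aristolochic acid was 1 (HLA-C) and became 0 without a filter, in the 6-library fit and with DESeq2; leaving out libraries gave 0 to 1. For MYDGF against untreated, leaving out libraries gave 1 to 2. Over all genes, MYDGF against aristolochic acid called 5379, and 3526 to 6282 with a library left out, the lowest without MYDGF library 3. Libraries with the same replicate number did not deviate together (correlations of deviations -0.16 to 0.02). With 3 libraries per group and few shared numbers, these correlations cannot settle whether libraries were paired. A fit with the replicate number as a block called 0, 0 and 0 of the 7 genes in the 3 comparisons (aristolochic acid against untreated, MYDGF against aristolochic acid, MYDGF against untreated) and 5062, 14 and 5446 of all genes, against 10779, 5379 and 9329; under that block the aristolochic acid differences of B2M, TAP2 and TAPBP turned to 0.21, 1.30 and 0.63, and B2M for MYDGF against untreated to 0.10. Log2 differences that turned sign with a library left out ran from -0.31 to 0.14 (B2M) and -1.22 to 0.03 (TAP2) for aristolochic acid against untreated; from -0.36 to 0.21 (B2M), -0.73 to 0.34 (HLA-B), -0.08 to 0.17 (HLA-F), -0.16 to 2.24 (TAP2) and -0.68 to 0.16 (TAPBP) for MYDGF against aristolochic acid; and from -0.42 to 0.09 (B2M), 0.00 to 0.13 (NLRC5) and -0.45 to 1.44 (TAP2) for MYDGF against untreated. None of these differences passed the test with all libraries. The replicate block leaves fewer residual degrees of freedom than the 6 of the main fit. It fits untreated library 2 and aristolochic acid library 6 exactly, because no other library shares their replicate numbers. Apart from this, and from fewer libraries and genes in some fits, the cause of these changes was not tested. HLA-C, HLA-F and TAP2 rest on 7 to 95 counts per library, which limits their precision.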
